A study of Mus musculus with 28 samples.

Results

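The 10 genes described here encode enzymes that make or break down leukotrienes and prostaglandins: Alox5, Alox5ap, Lta4h and Ltc4s of the leukotriene branch, Ptgs1, Ptgs2, Hpgds, Ptges and Ptges3 of the prostaglandin branch, and Hpgd, which inactivates prostaglandins. They were taken by gene symbol, with earlier results of these data known, and are 10 of the 40021 genes listed. All 10 passed the filter on low values (5 or more of the 28 retinas with an RPKM of 1 or higher), which kept 13164 genes. Ptgs2 and Ptges passed it through retinas at 4 h and 18 h alone, since in naive and 2-week retinas both were listed below an RPKM of 1. RPKM is the number of reads corrected for transcript length and for library size, so that levels can be set side by side between genes.

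Leukotrienes and prostaglandins are short-lived lipid signals made from arachidonic acid, a fatty acid that phospholipases release from membranes. In one branch, 5-lipoxygenase and its membrane partner FLAP make leukotriene A4, which is turned into the neutrophil attractant leukotriene B4 or, by conjugation with glutathione, into the cysteinyl leukotriene C4. In the other branch, the cyclooxygenases make prostaglandin H2, which terminal synthases turn into prostaglandin D2, prostaglandin E2 or thromboxane. In tissue macrophages, lipopolysaccharide (LPS) is known to induce the inducible cyclooxygenase and the inducible prostaglandin E synthase.

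The study asked how retinal microglia, the resident macrophages of the retina, change during and after endotoxin-induced uveitis (EIU), an eye inflammation set off by injecting LPS into the vitreous. All mice were male Cx3cr1CreER:R26-tdTomato heterozygotes on C57BL/6, given tamoxifen, in which Cx3cr1, the gene of the fractalkine receptor, drives an inducible Cre that turns on a red reporter. The marking therefore rests on Cx3cr1 activity, which other macrophages share, and live cells with high tdTomato were sorted from single retinas. Experiment 1 held 6 naive retinas and 3, 4 and 4 EIU retinas of 4 h, 18 h and 2 weeks, and experiment 2 held 4 naive retinas and 3, 1 and 3, which makes groups of 10, 6, 5 and 7 from left and right eyes. The labels do not tie retinas to mice, so a p-value below measures the spread between retinas, of which some may come from 1 animal.

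Each library held 7510000 to 19700000 alignments. A single read in libraries of that depth is worth 0.0114 to 0.0299 RPKM for Ptgs2 and 0.0709 to 0.186 RPKM for Ltc4s, so that values near these rest on single reads. In 4 retinas fewer than 7500 genes reached an RPKM of 1 (naive 3 and 4, EIU 18 h 4 and EIU 2 weeks 1, with 6552 to 7088 genes). Without them the members called numbered 7, 4 and 0 for the 3 times in order, as with them. The sorted cells carried the microglial markers in every group: the summed RPKM of 9 such genes, among them P2ry12, Tmem119 and Csf1r, was 2834 to 4565 in naive retinas and 2887 to 4258 in 2-week retinas, with lower sums of 572 to 2161 (4 h) and 1329 to 2658 (18 h) between them. Much of the 18 h sum was Aif1, a marker that was at 912 to 2393 RPKM there and at 251 to 1321 in naive retinas. P2ry12 was at 88.3 to 360 RPKM at 18 h and at 866 to 2714 in naive retinas. All 10 rod photoreceptor markers were also detected, with median sums of 4401 RPKM in naive retinas and 5010, 2448 and 4757 in the 4 h, 18 h and 2-week groups. Those of 6 Muller glia and astrocyte markers were 138, 97.8, 52.4 and 149 in the same order. Among both lists, the rod gene Nrl and the glial gene Glul were called lower at 18 h than in naive retinas (adjusted p = 0.0384 and 0.0416, limma), and the part of these cells in the members' values was not tested. In sorted populations such as these, fewer cells of a type and less RNA per cell cannot be told apart.

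In naive retinas the members fell into 3 ranges of level. Highest were Hpgd, Alox5ap and Ltc4s, with median RPKM of 380.5, 368 and 331, and their naive ranges overlapped. Hpgds, Ptgs1 and Ptges3 followed at medians of 88.1, 68.6 and 51.5. Lta4h and Alox5 stood lower, at 4.91 and 4.06. Ptges was listed at 0 in 7 of 10 naive retinas and did not pass 0.334, and Ptgs2 was listed at 0 in all 10. The naive libraries thus held transcripts for cysteinyl leukotriene synthesis, the constitutive cyclooxygenase, prostaglandin D2 synthesis and prostaglandin breakdown at measurable levels. Those of the inducible prostaglandin E2 route were at or near 0. The part of cells other than microglia in these values was not tested.

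At 4 h after LPS, 7 of the 10 members were called against naive, meaning an adjusted p of at most 0.05 in limma and a fold change of at least 2 on log2(RPKM + 1). Ptgs2 and Ptges were higher, and Ltc4s, Alox5ap, Ptgs1, Hpgds and Hpgd were lower. Of all genes tested, 8.08% were called in either direction, 3.68% higher and 4.39% lower. The median log2 fold change of the 10 members was -1.07, against -0.11 over all genes tested. Without overlap of any retina with the naive range, 2 members stood above and 4 below, compared with 1.65% and 1.42% of all genes. The 2 above were Ptgs2 and Ptges, which passed the filter through 4 h and 18 h retinas alone. A place above naive values near 0 was thus favoured by the filter and is no separate support. Rescaling every retina to an equal summed RPKM moved the median of all genes from -0.11 to -0.28, and 7 members were called there too.

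At 18 h, 4 members were called: Ptges was higher, and Ltc4s, Alox5ap and Hpgd were lower. The share of all genes called at 18 h was 4.69%, with 2.84% higher and 1.85% lower. The members' median log2 fold change was -0.79, against -0.08 over all genes. Ltc4s and Hpgd lay below every naive retina, as did 1.30% of all genes. Without EIU 18 h replicate 3 the number of members called was 2, since Alox5ap and Ptges then missed the threshold (adjusted p = 0.0741 and 0.0701, limma).

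At 2 weeks limma called no member. Of all genes 0.00760% were called there, which is 1 gene, and the members' median log2 fold change was -0.06, against 0.07 over all genes. At an unadjusted p under 0.05 there was 1 member, Ltc4s, beside 378 of the 13164 genes tested. All 3 times share the same naive retinas, so their values are given side by side below and not as separate evidence.

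**Figure D1:**
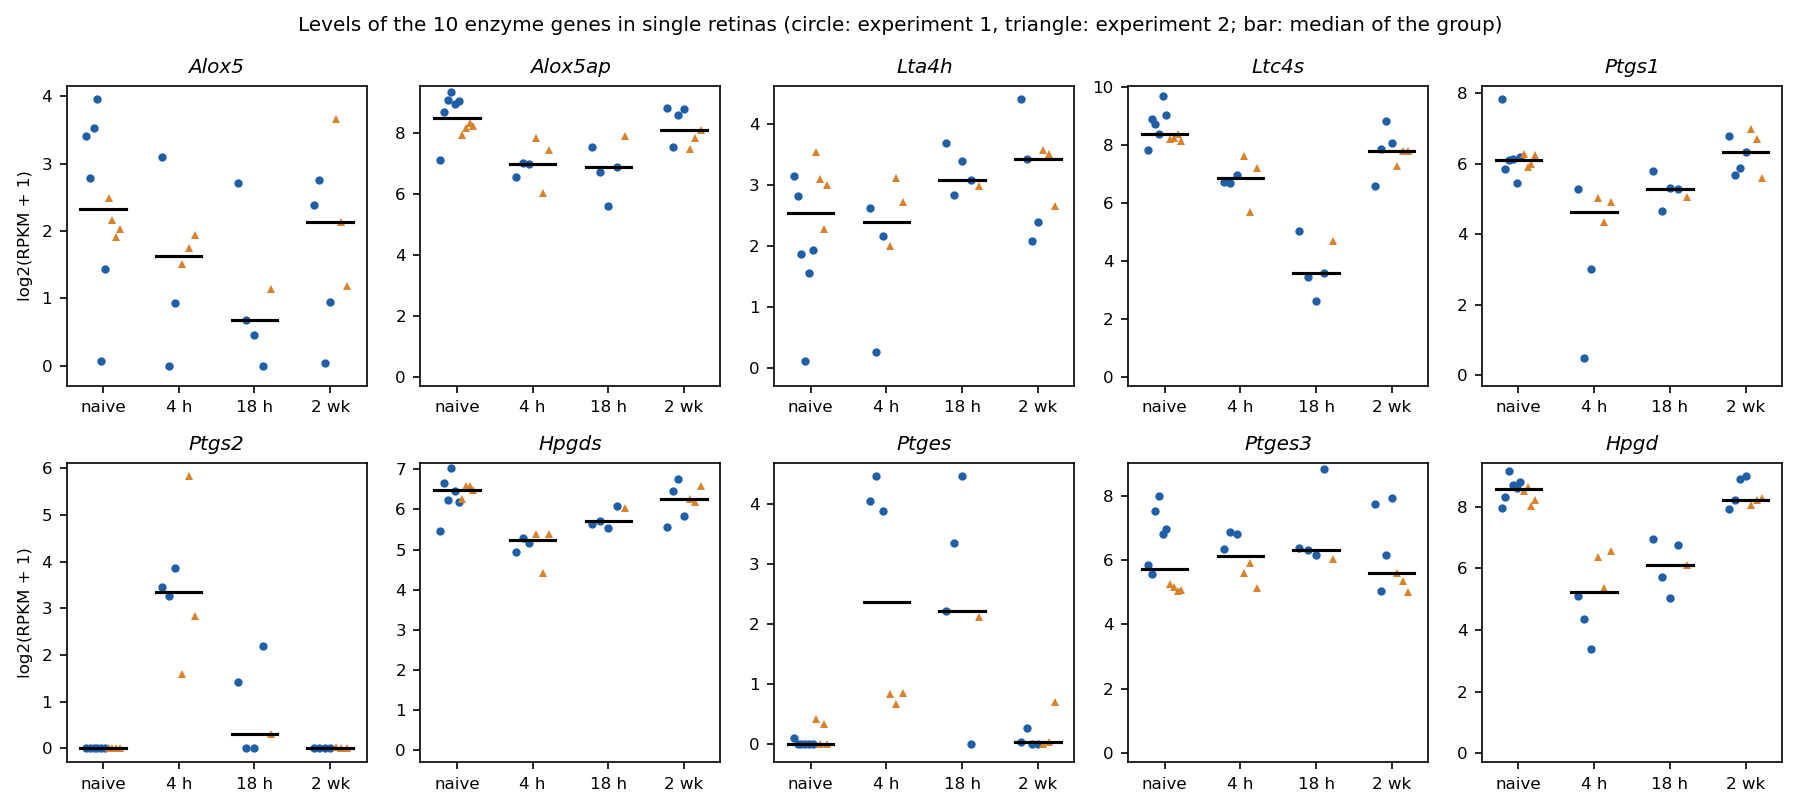
Levels of the 10 enzyme genes, as log2(RPKM + 1) on the vertical axis (each panel has its own scale), by group on the horizontal axis. Each point is 1 retina (circles experiment 1, triangles experiment 2) and each bar is the group's median. All 6 retinas at 4 h lie above the 10 naive retinas for Ptgs2 and Ptges, and the 5 retinas at 18 h lie below all the others for Ltc4s.

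**Figure D2:**
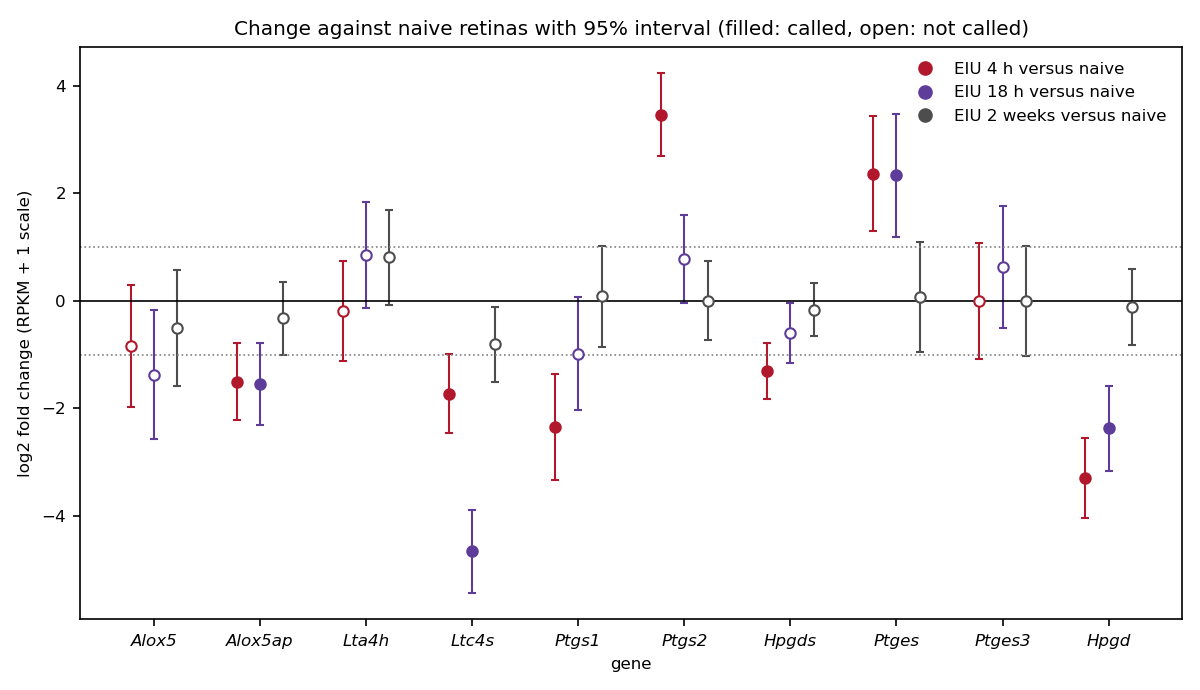
Log2 fold change against naive on the log2(RPKM + 1) scale (vertical axis) for the 10 genes (horizontal axis), with a colour for each time. Points are limma estimates, bars are 95% intervals, filled points are called, and dotted lines mark a fold change of 2. The lowest point is Ltc4s at 18 h (-4.67), the highest is Ptgs2 at 4 h (3.47), and at 2 weeks all points are open.

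Ltc4s (chr11:50236461-50238616, minus strand, GRCm38) encodes leukotriene C4 synthase, which joins glutathione to leukotriene A4. Its level in naive retinas was 225 RPKM at the lowest, 331 at the median and 821 at the highest. At 4 h these values were 50.2, 115 and 198. At 18 h the 5 retinas had 31.7, 9.97, 5.24, 10.9 and 24.8 RPKM. By 2 weeks the lowest, median and highest were 94.6, 223 and 451. No retina at 4 h reached the lowest naive value, no retina at 18 h reached the lowest value at 4 h, and the 2-week retinas overlapped both the naive and the 4 h range. Ltc4s had a log2 fold change against naive of -1.73 at 4 h (SE 0.36, adjusted p = 0.00128, limma) and of -4.67 at 18 h (SE 0.38, adjusted p = 3.65e-10). Between 4 h and 18 h it fell by a further 2.94 (SE 0.42, adjusted p = 1.61e-05), a comparison in which 5.42% of all genes were called (2.92% higher and 2.51% lower) and 2.79% lay wholly below the 4 h range. From 18 h to 2 weeks it rose by 3.86 (SE 0.41, adjusted p = 1.73e-07), where 2.65% of all genes were called (1.10% higher, 1.55% lower). All 7 retinas at 2 weeks lay above all 5 at 18 h, as in 2.09% of genes, while 2.07% lay wholly below. The 2-week difference from naive was -0.81 (95% interval -1.50 to -0.11, adjusted p = 1), an interval that lay below 0 in a comparison that was not called.

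The fall of Ltc4s was seen in both experiments. In experiment 1 the naive mean was 466 ± 204 RPKM (SD, n = 6), the 4 h mean 111 ± 11.4 (n = 3) and the 18 h mean 14.5 ± 11.7 (n = 4). In experiment 2 they were 301 ± 22.5 (n = 4) and 131 ± 74.9 (n = 3), with 24.8 in the only retina at 18 h. Fitted in experiment 1 alone, the 4 h change was -1.95 with an adjusted p of 0.0527 in limma, just short of a call.

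An antisense gene, Gm26542, shares 268 exonic bases with Ltc4s, and the library kit does not mark strand, so reads from the shared bases cannot be assigned to either. Gm26542 was the second most alike of all genes tested to Ltc4s over the 28 retinas, with a Pearson correlation of 0.89 across log2(RPKM + 1). Cst3 (cystatin C, 0.91) and Tgfbr1 (a TGF-beta receptor, 0.89) were the others of the 3 most alike. These correlations span the 4 groups and are descriptions.

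Cx3cr1 is also active in macrophages of the tissue borders, and their markers were lower at 18 h beside Ltc4s. The summed RPKM of 6 such genes (Mrc1, Cd163, Lyve1, Pf4, Cbr2 and F13a1) was 0.146 to 538 in naive retinas with a median of 218. It was 37.8 to 338 at 4 h, 5.02 to 41.1 at 18 h and, after 2 weeks, 0.714 to 382. None of the 6 was called at any time. The naive retinas with the lowest sums, 0.146 and 16.8, held 330 and 225 RPKM of Ltc4s, the latter the lowest naive value, and the 2-week retinas with the lowest sums, 0.714 and 13.3, held 267 and 451. Natural killer cell and lymphocyte markers were present at 18 h: 8 such genes summed to 7.09 to 105 RPKM, of which Nkg7 alone gave 5.77 to 86.4, against at most 0.0806 in naive retinas. Summed monocyte markers (8 genes) were 0.151 to 3.16 RPKM in naive retinas, 0.0505 to 15.6 at 4 h, 0.228 to 49.7 at 18 h and, after 2 weeks, 0.480 to 26.6. Of 11 neutrophil markers in the table, Ly6g did not pass 0.189 RPKM in any retina, while S100a8, S100a9, Camp and Mmp8, listed at 0 in all naive retinas, reached 9.24, 5.15, 3.28 and 2.30 at 18 h. The sum over the 11 was 5.60 to 83.0 in naive retinas, with Csf3r alone at 5.60 to 83.0, and 2.86 to 29.1 at 18 h, with Csf3r at 2.86 to 11.7. The part of these cells in the 18 h values was not tested. Of 9 markers of mast cells, a classical source of leukotriene C4, and basophils, 4 were in the table: Ms4a2 was listed at 0 throughout, Kit and Gata2 did not pass 0.345 and 0.144 RPKM, and Cma1 was listed at 0 in all but 2 retinas at 18 h, where it reached 6.75.

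The bases upstream of Ltc4s are shown because this gene was called in both directions over the course, next to those of Ptgs1 and Ptgs2, the pair of isozymes that moved apart, and of Hpgds. Each is the 250 bases before the RefSeq start in GRCm38.p6, written 5' to 3' on the gene's strand, with matches to any of 6 motifs in capitals: NF-kappa B (the kappa B site with GGGA, then 2 free bases and then TTCC), CRE (TGACGTCA), C/EBP (TTGCNNAA), PU.1 (GAGGAAGT), the E-box spelled CACGTG and, last, the TATA box spelled TATAAA. Both strands were searched. Ltc4s is at chr11:50238533-50238782 (minus), Ptgs1 at chr2:36230176-36230425 (plus), Ptgs2 at chr1:150099781-150100030 (plus) and Hpgds at chr6:65144731-65144980 (minus).
Ltc4s: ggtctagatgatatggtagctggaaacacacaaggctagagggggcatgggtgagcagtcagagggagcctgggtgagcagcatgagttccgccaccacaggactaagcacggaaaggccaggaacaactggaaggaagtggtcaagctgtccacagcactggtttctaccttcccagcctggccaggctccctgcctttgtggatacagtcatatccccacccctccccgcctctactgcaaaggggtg
Ptgs1: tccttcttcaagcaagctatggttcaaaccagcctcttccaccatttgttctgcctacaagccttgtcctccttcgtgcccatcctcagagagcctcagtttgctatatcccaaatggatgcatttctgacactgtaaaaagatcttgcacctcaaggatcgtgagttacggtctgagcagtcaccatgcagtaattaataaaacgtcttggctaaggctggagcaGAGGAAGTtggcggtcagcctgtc
Ptgs2: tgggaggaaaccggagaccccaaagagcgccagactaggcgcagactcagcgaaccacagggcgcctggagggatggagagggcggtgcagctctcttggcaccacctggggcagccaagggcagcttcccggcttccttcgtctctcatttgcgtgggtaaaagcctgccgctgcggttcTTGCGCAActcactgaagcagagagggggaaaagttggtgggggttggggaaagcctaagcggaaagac
Hpgds: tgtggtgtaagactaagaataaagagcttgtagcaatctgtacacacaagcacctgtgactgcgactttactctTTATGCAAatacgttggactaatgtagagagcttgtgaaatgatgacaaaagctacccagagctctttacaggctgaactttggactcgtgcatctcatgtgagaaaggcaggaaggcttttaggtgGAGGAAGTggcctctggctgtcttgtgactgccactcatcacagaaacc

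Of the 10 members, 9 had a RefSeq promoter sequence, and Alox5ap had no entry. The Ptgs2 window holds a C/EBP match, TTGCGCAA, 69 to 62 bases before the start. Ptgs1 has a PU.1 match 24 to 17 bases before its start. Hpgds has a C/EBP match on the other strand, TTATGCAA, 176 to 169 bases before its RefSeq start and a PU.1 match 49 to 42 bases before it. RefSeq and GENCODE starts differ for some genes. The windows of Ltc4s, Hpgds, Ptges and Ptges3 therefore lie partly or wholly within the GENCODE spans given for those genes, and both Hpgds matches fall within its span. The windows of Ltc4s, Alox5, Lta4h, Ptges, Ptges3 and Hpgd hold none of the 6. Among 32851 promoters of the same length, 9.56% hold the C/EBP letters, 2.44% those of PU.1, 1.21% those of NF-kappa B, 1.55% CRE, 6.02% the E-box and 12.4% TATA. A match is a run of letters and not a measured site, and none of the motifs overlaps another in these windows.

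Alox5ap (chr5:149264767-149288153, plus strand) encodes FLAP, the membrane protein that presents arachidonic acid to 5-lipoxygenase. It ranged over 139, 368 and 661 RPKM in naive retinas (lowest, median, highest) and over 65.2, 128 and 230 at 4 h. At 18 h the values were 188, 104, 47.8, 119 and 241 RPKM. At 2 weeks they were 178, 273 and 454. At 4 h 4 of 6 retinas and at 18 h 3 of 5 lay below the lowest naive value, and the others lay within the naive range. The log2 fold change was -1.51 at 4 h (SE 0.35, adjusted p = 0.00423, limma) and -1.56 at 18 h (SE 0.37, adjusted p = 0.0100), and -0.33 at 2 weeks (95% interval -1.01 to 0.36). The only 18 h retina of experiment 2, at 241 RPKM, lay just below the 246 to 323 of the naive retinas of that experiment, with a log2 difference of -0.25 in a fit of experiment 2 alone. Alox5ap shares 189 exonic bases with the antisense gene Gm19719. The most alike genes over the 28 retinas were AU020206, Gngt2 and H2afv, with correlations of 0.88, 0.88 and 0.87.

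Alox5 (chr6:116410077-116461178, minus strand) encodes 5-lipoxygenase itself, and its level was low and variable. Naive retinas had 0.0471, 4.06 and 14.5 RPKM (lowest, median, highest), and 4 h retinas had 0, 2.10 and 7.54. The 18 h retinas had 5.56, 0.605, 0.378, 0 and 1.21 RPKM. At 2 weeks the range was 0.0289 to 11.6 with a median of 3.39. All groups overlapped, and no change was called: the log2 fold change was -0.84 at 4 h (95% interval -1.97 to 0.29), -1.38 at 18 h (-2.58 to -0.18, adjusted p = 0.198, limma) and -0.51 at 2 weeks (-1.59 to 0.57).

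Lta4h (chr10:93453411-93484875, plus strand) encodes leukotriene A4 hydrolase, which competes with Ltc4s for the same substrate and makes leukotriene B4. Its naive values were 0.0736, 4.91 and 10.6 RPKM at the lowest, the median and the highest. At 4 h they were 0.199, 4.31 and 7.64. The 18 h retinas had 11.8, 6.15, 9.45, 7.39 and 6.85 RPKM, and 2-week retinas 3.22 to 20.1 with a median of 9.67. The groups overlapped throughout. Its log2 fold change was -0.19 at 4 h (95% interval -1.12 to 0.75). At 18 h it was 0.86 with an interval of -0.13 to 1.85, and at 2 weeks 0.81 with an interval of -0.08 to 1.70, none of them called.

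The ratio of Ltc4s to Lta4h, both in RPKM, put these enzymes of a common substrate side by side. Its median was 83.0 in naive retinas and 30.8, 1.62 and 23.7 in the EIU groups in order of time. At 18 h it was 0.555 to 3.62, below the lowest retina of each of the other groups (27.5 in naive, 6.57 at 4 h and 4.70 at 2 weeks). Naive ratios reached 4482, in the retina where Lta4h stood at 0.0736 RPKM.

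In the prostaglandin branch, the cyclooxygenases moved in opposite directions at 4 h. Ptgs2 (chr1:150100031-150108227, plus strand) encodes cyclooxygenase-2, the inducible isozyme, and was listed at 0 in all 10 naive retinas. At 4 h the retinas of experiment 1 had 9.98, 8.57 and 13.5 RPKM, and those of experiment 2 had 2.01, 56.0 and 6.10. At 18 h the values were 1.70, 0, 0, 3.60 and 0.232. At 2 weeks it was listed at 0 in 6 of 7 retinas and at 0.0182, about the worth of 1 read, in the other. Ptgs2 was thus above every naive retina in 6 of 6 retinas at 4 h and in 3 of 5 at 18 h. Since the naive values were all 0, no fold change is given, and differences are on the log2(RPKM + 1) scale, where the pseudocount sets their size (at 4 h 6.61 with a pseudocount of 0.1 and 1.13 with 10). The difference was 3.47 at 4 h (SE 0.38, adjusted p = 5.73e-08, limma) and 0.79 at 18 h (95% interval -0.03 to 1.61, adjusted p = 0.311). From 4 h to 18 h it fell by 2.68 (SE 0.44, adjusted p = 1.33e-04). At 2 weeks the difference from naive was 0.00 (-0.73 to 0.74).

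Ptgs1 (chr2:36230426-36252272, plus strand) encodes cyclooxygenase-1, the constitutive isozyme. Naive retinas had 43.0 RPKM at the lowest, 68.6 at the median and 228 at the highest. At 4 h the 3 retinas of experiment 1 had 37.8, 0.402 and 7.09, and the 3 of experiment 2 had 31.7, 19.5 and 29.1. At 18 h Ptgs1 was at 54.1, 24.4, 38.5, 37.7 and 32.6 RPKM, and at 2 weeks at 47.8 to 125 with a median of 80.5. Every retina at 4 h and 4 of 5 at 18 h lay below the lowest naive one. The 2-week range lay within the naive range only through naive replicate 1, at 228 RPKM. The other naive retinas had 43.0 to 76.4, all below the 2-week median. The log2 fold change of Ptgs1 was -2.36 at 4 h (SE 0.48, adjusted p = 0.00116, limma), -0.98 at 18 h (95% interval -2.03 to 0.07, adjusted p = 0.326) and 0.08 at 2 weeks (-0.86 to 1.03). Gm43621, an unclassified transcript on the opposite strand, shares 148 exonic bases with it. Bin1 (amphiphysin 2), Vsir (the checkpoint receptor VISTA) and Mtus1 were most alike, with correlations of 0.96, 0.91 and 0.91, and for Ptgs2 they were Ctdnep1 (0.94), the AP-1 factor Fosl2 (0.92) and Rab11fip1 (0.91).

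Set against the summed RPKM of both cyclooxygenases, the share of Ptgs2 was 0% in all naive retinas. At 4 h the shares were 20.9%, 95.5% and 65.5% in experiment 1 and 5.95%, 74.2% and 17.3% in experiment 2. In 3 of 6 retinas Ptgs2 therefore exceeded Ptgs1, 2 of them in experiment 1. The highest share went with the lowest Ptgs1 value, 0.402 RPKM. At 18 h the share was 0 to 8.70%, and at 2 weeks at most 0.0145%.

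**Figure D3:**
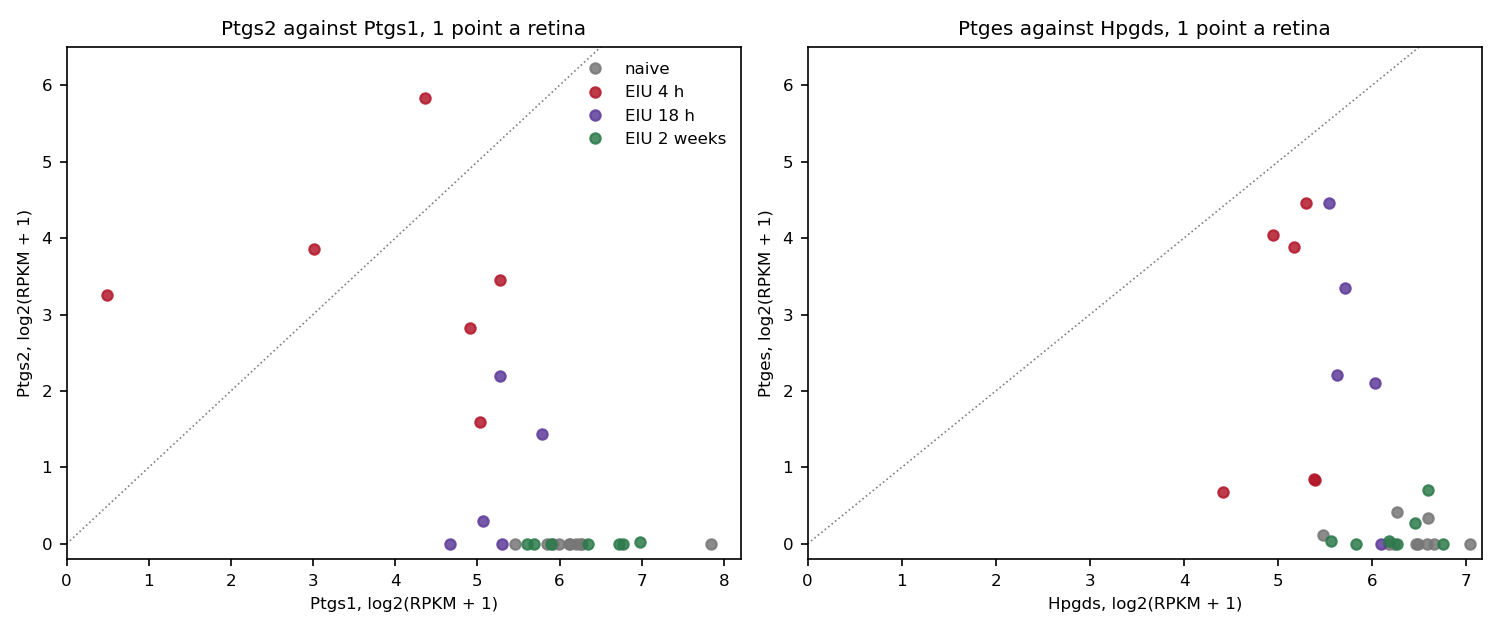
Left, Ptgs2 (vertical) against Ptgs1 (horizontal), and right, Ptges (vertical) against Hpgds (horizontal), both axes as log2(RPKM + 1), with 1 point a retina coloured by group and a dotted line where both are equal. In the left panel 3 of the 6 retinas at 4 h lie above the line, and in the right panel no retina does.

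Among the terminal synthases, Hpgds and Ptges also moved in opposite directions at 4 h. Hpgds (chr6:65117293-65144908, minus strand) encodes the haematopoietic prostaglandin D synthase. It stood at 43.4, 88.1 and 130.3 RPKM in naive retinas (lowest, median, highest) and at 20.3, 36.6 and 41.0 at 4 h. The 18 h retinas had 48.4, 51.5, 45.4, 67.4 and 64.2 RPKM, and the 2-week retinas 46.4, 75.7 and 107. At 4 h no retina reached the lowest of any other group. Its log2 fold change against naive was -1.30 at 4 h (SE 0.25, adjusted p = 6.53e-04, limma), -0.60 at 18 h (95% interval -1.15 to -0.05, adjusted p = 0.232) and -0.16 at 2 weeks (-0.66 to 0.33). All 5 retinas at 18 h were above all 6 at 4 h, as in 4.84% of all genes, with a difference of 0.70 that was not called (adjusted p = 0.207). Plxna4os1, Lsm10 and Nr6a1os were most alike to Hpgds, with correlations of 0.87, 0.83 and 0.82.

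Ptges (chr2:30889471-30929863, minus strand) encodes the inducible microsomal prostaglandin E synthase, which works with cyclooxygenase-2. In naive retinas it was listed at 0 in 7 and at 0.0803, 0.334 and 0.265 RPKM in the others. At 4 h it was 15.5, 20.9 and 13.7 in experiment 1 but 0.785, 0.593 and 0.800 in experiment 2. At 18 h it was 3.63, 9.14, 21.0 and 0 in experiment 1 and 3.31 in the experiment 2 retina. At 2 weeks it was 0 to 0.627. All 6 retinas at 4 h lay above all naive ones, while the lowest of experiment 1 was 13.7 and the highest of experiment 2 was 0.800. On the log2(RPKM + 1) scale the difference from naive was 2.37 at 4 h (SE 0.53, adjusted p = 0.00258, limma), 2.34 at 18 h (SE 0.56, adjusted p = 0.00956) and 0.06 at 2 weeks (95% interval -0.96 to 1.09). From 18 h to 2 weeks it fell by 2.27 (SE 0.60, adjusted p = 0.0307), a call that was lost in 4 of 14 alternatives (adjusted p of up to 0.145) and in 7 of 28 fits with a retina left out. These were EIU 18 h replicates 1, 2, 3 and 5 and EIU 2 weeks replicates 3, 5 and 6, with adjusted p of 0.0514 to 0.147.

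The change of Ptges at 4 h was smaller in experiment 2 by 3.51 on the log2(RPKM + 1) scale (95% interval -5.10 to -1.93, unadjusted p = 1.05e-04, adjusted p = 0.0765, limma). No member was called for this difference between experiments, as were 0.0988% of all genes (0.0912% with the lower change in experiment 2), and 3 members had an unadjusted p under 0.05, beside 620 of the 13164 genes (4.71%). The others were Hpgd (2.05, adjusted p = 0.406) and Ptgs1 (2.00, adjusted p = 1), both with the smaller fall in experiment 2. Fitted in experiment 2 alone, the 4 h difference of Ptges was 0.60 with an adjusted p of 0.0948. Ptgs2 differed between the experiments by -0.11 (-1.76 to 1.55). The genes most alike to Ptges were Ifitm7 (0.93), the kinase gene Ikbke (0.90) and Tnfrsf9 (0.87).

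Of the summed RPKM of Hpgds and Ptges, the latter made up at most 0.438% in naive retinas. At 4 h it made up 34.2%, 35.4% and 28.2% in experiment 1 and 1.88%, 2.84% and 1.93% in experiment 2. At 18 h the share was 0 to 31.6% with a median of 6.98%, and at 2 weeks at most 0.652%. Hpgds exceeded Ptges in every retina of the series.

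Ptges3 (chr10:128058954-128077272, plus strand) encodes p23, a chaperone partner of HSP90 that also has cytosolic prostaglandin E synthase activity. It has 1 pseudogene named after it, with which reads could be shared. Naive retinas had 32.1, 51.5 and 256 RPKM (lowest, median, highest), 4 h retinas 33.7, 70.3 and 117, and 2-week retinas 31.1, 47.0 and 244. The 18 h retinas had 82.9, 78.8, 70.5, 459 and 65.0 RPKM. No change was called, and at 4 h and 2 weeks the estimates were at 0 (-0.01 at both, 95% intervals -1.08 to 1.07 and -1.03 to 1.02), with a sign that differed between settings. At 18 h the log2 fold change was 0.63 (-0.51 to 1.77), and 0.10 without EIU 18 h replicate 4, the retina at 459 RPKM. Naive retinas of the 2 experiments did not overlap, with 46.2 to 256 RPKM in experiment 1 and 32.1 to 37.3 in experiment 2.

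The transcript of the main prostaglandin-degrading enzyme fell at 4 h and at 18 h. Hpgd (chr8:56294585-56321043, plus strand) encodes 15-hydroxyprostaglandin dehydrogenase, the enzyme that inactivates prostaglandin E2 and related prostaglandins. Its naive values were 247, 380.5 and 569 RPKM at the lowest, the median and the highest. At 4 h they were 33.3, 19.6 and 9.53 in experiment 1 and 82.2, 40.4 and 93.4 in experiment 2. The 18 h retinas had 123, 51.4, 32.2, 108 and 68.5 RPKM. By 2 weeks the lowest, median and highest were 244, 299.7 and 508. All retinas at 4 h and 18 h lay below all naive and all 2-week retinas. The log2 fold change was -3.30 at 4 h (SE 0.36, adjusted p = 6.25e-08, limma) and -2.38 at 18 h (SE 0.38, adjusted p = 1.42e-04), and from 18 h to 2 weeks Hpgd rose by 2.26 (SE 0.41, adjusted p = 9.24e-04). At 2 weeks its difference from naive was -0.12 (95% interval -0.83 to 0.59). Fam102b, Gfm2 and Commd8 were most alike, at 0.92, 0.91 and 0.91.

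The members that were lower at 4 h and 18 h fell beside other genes of resting microglia. Of the 9 microglial markers, 5 were called lower at 4 h and 5 at 18 h, none higher, beside 4.39% and 1.85% of all genes called lower. Aif1 was higher at 18 h without a call (log2 fold change 0.85), and none of the 9 was called at 2 weeks. Their median log2 fold change was -1.44 at 4 h and -1.33 at 18 h, against -1.73 and -4.67 for Ltc4s and -3.30 and -2.38 for Hpgd. How far the fall of the members went with that of the markers was not tested.

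The wider pathway was described by 65 other genes: lipases, further synthases and reductases, receptors and transporters. Of these, 63 were in the table and 26 passed the filter, namely 10 lipases, 13 other enzymes, 2 receptors and 1 transporter. At 4 h, 1 of the 26 was called higher and 5 lower, and the median of their log2 fold changes was -0.51. Of all genes tested, 3.68% were called higher and 4.39% lower there, with a median of -0.11. At 18 h 1 of the 26 was called higher and 1 lower, with a median of -0.25. Over all genes these were 2.84% and 1.85%, with a median of -0.08. At 2 weeks limma called none of the 26 (median 0.12, against 0.07 over all genes).

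Of 15 receptors listed, 2 passed the filter, and at 4 h both were called, in opposite directions. Ptger4, the EP4 receptor for prostaglandin E2, was at 0.0283 to 0.572 RPKM in naive retinas and at 2.23 to 24.4 after 4 h. It was at 0.745 to 3.78 after 18 h and at 0.0636 to 3.28 after 2 weeks. It passed the filter through EIU retinas alone, since none of the naive ones reached an RPKM of 1, while all 6 did so at 4 h, 4 of 5 at 18 h and 1 of 7 in the last group. All retinas at 4 h and 18 h were above all naive ones, as in 1.65% and 2.05% of all genes. A place above naive values under an RPKM of 1 was favoured by the filter and is no separate support. Ptger4 rose by 2.76 (SE 0.33, adjusted p = 3.27e-07, limma) and by 1.21 (SE 0.35, adjusted p = 0.0379). The call at 18 h was lost in 8 of 13 alternatives and in 10 of 28 fits with a retina left out. Among the alternatives were experiment 1 alone (adjusted p = 0.189) and equal summed RPKM (adjusted p = 0.0813). Cysltr1, a receptor for cysteinyl leukotrienes, was at 11.0 to 61.4 RPKM in naive retinas and at 2.20 to 7.75 after 4 h. It was at 6.87 to 26.2 after 18 h and at 20.6 to 46.3 after 2 weeks. It fell at 4 h by 2.69 (SE 0.34, adjusted p = 7.44e-07, limma). All retinas at 4 h lay below all naive ones, as in 1.42% of all genes.

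Of the enzymes, Ggt5, a gamma-glutamyl transferase that turns leukotriene C4 into leukotriene D4, fell at 4 h and at 18 h. It was at 0.928 to 6.56 RPKM in naive retinas, 0.0617 to 0.184 at 4 h and 0.0744 to 0.554 at 18 h, with log2 fold changes of -1.54 (SE 0.32, adjusted p = 0.00152, limma) and -1.41 (SE 0.34, adjusted p = 0.0111). Both calls were lost with quantile normalisation (adjusted p = 0.0551 and 0.165), in experiment 2 alone (log2 fold changes of -0.86 and -0.68) and with a pseudocount of 10 (-0.31 and -0.30). Tbxas1, thromboxane A synthase, had naive values of 1.75 to 36.1 RPKM and 4 h values of 0.235 to 9.54, and was lower by -1.44 on the log2 scale (SE 0.44, adjusted p = 0.0349). That call was lost in 5 of 14 alternatives and in 5 of 28 fits with a retina left out, with an adjusted p of 0.144 without EIU 4 h replicate 3. The lipases Pla2g15, a lysosomal phospholipase A2, and Abhd6, which hydrolyses monoacylglycerols, had log2 fold changes of -1.77 (SE 0.52, adjusted p = 0.0276) and -1.51 (SE 0.36, adjusted p = 0.00490) at 4 h. The call of Pla2g15 was lost in 4 of 14 alternatives and in 3 of 28 fits with a retina left out. Its adjusted p was 0.117 without EIU 4 h replicate 2, where it was listed at 0. For Abhd6 the adjusted p was 0.187 in experiment 1 alone and 0.0573 with a replicate block.

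**Figure D4:**
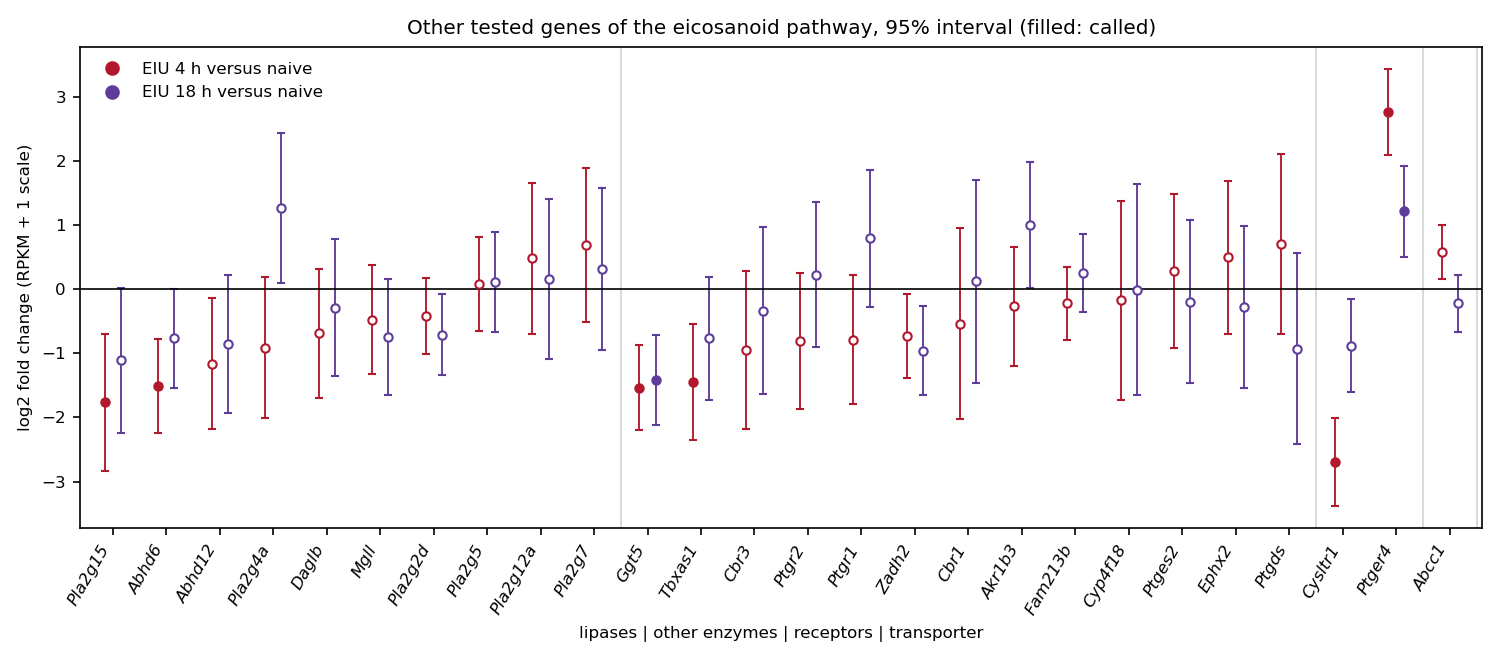
Log2 fold change against naive on the log2(RPKM + 1) scale (vertical axis) at 4 h and 18 h for the 26 other pathway genes that passed the filter (horizontal axis, by class and then by the 4 h change). Points are limma estimates with 95% intervals, and filled points are called: Ptger4 is the only filled point above 0, and Cysltr1 is the lowest.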

How the data were processed

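Microglia sorted from 28 single retinas were profiled by mRNA-Seq after cDNA amplification with SMART-Seq v4, which does not mark strand. The authors aligned the reads to mm10 with STAR 2.5.3a, quantified transcripts in Partek by expectation maximisation, and deposited RPKM values per gene and retina with the number of alignments, so that whole reads were not recovered here. Depth was 7510000 to 19700000 alignments. The tables of the authors' own group comparisons (p-values, ratios, fold changes, F statistics and sums of squares) were not used. Values were transformed to log2(RPKM + 1), and the 13164 of 40021 genes that reached an RPKM of 1 in 5 or more of the 28 retinas were tested with limma 3.58.1 in R 4.3.3. All 4 groups entered a single fit, variances were moderated towards a mean-variance trend, and p-values were adjusted over all genes tested by Benjamini-Hochberg. Called genes had an adjusted p of 0.05 or lower and at least a 2-fold change. The difference between experiments in the 4 h change was an interaction term in a fit of experiment within group.

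Groups, experiments and eyes came from the labels. Members and gene lists were chosen with earlier results of these data known. Genes named are all members, the pathway genes called at 4 h or 18 h, and for each called member the 3 genes of highest Pearson correlation over the 28 retinas. Gene coordinates are GENCODE M21 (GRCm38), promoters are RefSeq (GRCm38.p6). The test was checked on simulated data. Alternatives were pseudocounts of 0.1 and 10, other filters, covariates, scalings and variance models, each experiment alone, a replicate block and each retina left out. A fit of retinas with at least 7500 genes was chosen after seeing the data. No 2 retinas shared more than 2 identical values above 0. A gene of the microglial marker list is not reported here and was left out of its counts and sums.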

Additional observations from a re-analysis of the deposited data

Results flagged for a closer look

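In 4 of 39 groups of members' values that could be examined, 1 retina stood apart from the rest by Dixon's criterion on log2(RPKM + 1), a criterion that flags about 1 in 20 groups by chance. Ptgs1 was at 228 RPKM in naive replicate 1, where the other naive retinas had 43.0 to 76.4. Ptges3 was at 459 RPKM in EIU 18 h replicate 4, where the others had 65.0 to 82.9, and this was among the retinas with the fewest genes detected (6969 genes at an RPKM of 1). Ptges was at 0.627 RPKM in EIU 2 weeks replicate 7, with 0 to 0.211 in the others. Ptgs2 was at 0.0182 RPKM in EIU 2 weeks replicate 5 and listed at 0 in the others, so that any value above 0 would have stood apart.

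The change differed between 4 h and 18 h for 2 members, by limma's test of 18 h against 4 h: Ltc4s was lower at 18 h by -2.94 on the log2 scale (adjusted p = 1.61e-05) and Ptgs2 by -2.68 (adjusted p = 1.33e-04). Of all genes tested, 5.42% were called in that comparison, and 2.51% were called lower.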

How the results depend on the processing

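At 4 h, 5 to 7 members were called under 15 alternatives and 7 with any retina left out, and at 2 weeks 0 under all of them. At 18 h it was 3 to 4, and 2 to 4 with a retina left out. For 18 h against 4 h the count was 2, but 1 with a pseudocount of 10 and 0 in experiment 2 alone, which has a single retina at 18 h. For the difference between experiments it was 0, but 1 (Ptges) with a pseudocount of 10, quantile normalisation, only the groups compared, or only retinas with at least 7500 genes, and 0 to 1 with a retina left out (adjusted p 0.00201 without EIU 18 h replicate 4, 0.0158 without EIU 18 h replicate 3). Over all genes, 1063 were called at 4 h, and 416 with a pseudocount of 10. Deviations from the group mean were correlated between retinas of different groups. The median was 0.04 for the same replicate number (over 0.1 in 15 of 34 pairs) and 0.005 for other numbers (93 of 253 pairs). No pairing by number was thus seen, but the check cannot exclude one, and retinas of the same group were not compared. For pairs from the same experiment the median was 0.11 (over 0.1 in 75 of 149 pairs). For pairs from different experiments it was -0.066 (33 of 138 pairs). The main fit has no term for experiment, which was a covariate in an alternative. With a replicate block 7, 4 and 0 members were called at the 3 times in order, and the experiment difference of Ptges was -2.54 (adjusted p = 1.00).

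Single members' calls were lost for Ltc4s and Hpgds at 4 h in experiment 1 alone (adjusted p = 0.0527 and 0.165), for Alox5ap in experiment 2 alone at 4 h and 18 h (0.0709 and 0.866), and for Ptges with a pseudocount of 10 at 4 h (log2 change 0.75) and 18 h (0.68). The call of Ptges from 18 h to 2 weeks was lost in 4 alternatives (adjusted p 0.0508 to 0.145). Directions reversed only for changes that were not called. With the replicate block Lta4h at 4 h was 0.087 and Ptges3 at 18 h -0.14. In experiment 2 alone Ptges3 was 0.42 at 4 h and 0.18 at 2 weeks, Lta4h at 18 h -0.0024, Alox5 at 2 weeks 0.17 and Alox5ap from 18 h to 2 weeks -0.11. In experiment 1 alone Ptgs1 at 2 weeks was -0.089. With experiment as a covariate Ptges3 was 0.13 at 4 h and 0.032 at 2 weeks. With quantile normalisation Ptges3 at 4 h was 0.18 and Ptgs2 at 2 weeks -0.033, and with the eye side as a covariate the latter was -0.0057. With only retinas of at least 7500 genes, Ptges3 was 0.40 at 4 h and 0.13 at 2 weeks, and at 2 weeks Ptgs1 was -0.017, Hpgds 0.0064 and Hpgd 0.062. The cause was not tested. With a retina left out, ranges that crossed 0 were -0.43 to 0.19 for Lta4h at 4 h, -0.16 to 0.20 for Ptges3 at 4 h, -0.031 to 0.27 for Ptgs1 at 2 weeks, -0.028 to 0.10 for Ptges at 2 weeks and -0.31 to 0.20 for Ptges3 at 2 weeks. Values near 0, as in Ptgs2, Ptges, Alox5 and Lta4h, rest on few reads.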
